A study of Mus musculus with 15 samples.

Results

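Kruppel-like factors and genes of tissue egress were followed in mouse group 2 innate lymphoid cells (ILC2s) and their bone marrow precursors (ILC2p). The set held 10 genes, matched by symbol to the deposited gene tables, of 24089 symbols in all: the Kruppel-like factor genes Klf2, Klf3, Klf4, Klf6, Klf7, Klf10 and Klf13, the sphingosine-1-phosphate (S1P) receptor genes S1pr1 and S1pr4, and Cd69. They were selected on measured values of these same libraries, so what follows for them is a description with no test, and the calls given for them support nothing by themselves.

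RNA sequencing covered 15 libraries of cells that derived from C57BL/6 mice carrying floxed Tgfbr2 alleles and ER-Cre (Tgfbr2 f/f ER-Cre+), aged 8 to 12 weeks. Lamina propria (LP) ILC2s came from these mice themselves and ILC2p from hosts that had received their marrow, so the age is not that of the hosts at the sort. Tamoxifen at 1 mg per day for 5 days gave the Tgfbr2-/- groups and sunflower oil gave the WT groups, so the WT mice also carried the floxed alleles and the Cre, and tamoxifen itself was given to the Tgfbr2-/- groups alone. The LP ILC2s were sorted as CD45+Lin-CD127+Sca-1+CD25+KLRG1+ cells, with 4 WT and 3 Tgfbr2-/- libraries. ILC2p were sorted as CD45.2+Lin-CD127+α4β7+CD25+ cells from mixed bone marrow (BM) chimeras, with 4 WT and 4 Tgfbr2-/- libraries, 6 weeks after marrow of treated donors was given with CD45.1 marrow to irradiated CD45.1 hosts. ER-Cre is not restricted to a lineage, so the deletion in the donors was not limited to ILC2s. Each cell type was collected in 2 experiments, and the labels do not say in what the experiments differed or whether libraries of a group came from separate animals, so the spread between libraries may be in part technical. The libraries held 10957021 to 35961215 counts on genes, with medians of 20983448 in LP ILC2s and 20102800 in ILC2p.

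Kruppel-like factors are zinc finger proteins that bind GC-rich and CACCC elements. In T cells KLF2 keeps S1pr1 transcribed, S1PR1 carries cells toward the S1P of blood and lymph, and CD69 binds S1PR1 at the membrane and takes it inside, so that cells high in CD69 and low in KLF2 and S1PR1 stay in tissue. S1PR4 is a further S1P receptor of leukocytes. KLF6 and KLF10 are known as TGF-β responsive or early response factors, KLF4 restrains proliferation in several lineages, KLF13 acts late in T cell activation, KLF3 is largely a repressor and KLF7 is best known in neurons and progenitors.

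RefSeq promoter windows on build GRCm38.p6 were found for 7 of the 10 genes and not for Klf10, S1pr1 and Cd69. The 250 bases before the start are printed for Klf2 and S1pr4, which were both lower in WT LP ILC2s than in WT ILC2p, and for Klf6, which was lower in the Tgfbr2-/- libraries of both cell types. Capitals mark matches, on either strand, to CACCC, to GGGCGG and to the MEF2 site, which is bound by the MEF2 factors known to act on Klf2.
Klf2 (chr8:72318812-72319061, plus strand): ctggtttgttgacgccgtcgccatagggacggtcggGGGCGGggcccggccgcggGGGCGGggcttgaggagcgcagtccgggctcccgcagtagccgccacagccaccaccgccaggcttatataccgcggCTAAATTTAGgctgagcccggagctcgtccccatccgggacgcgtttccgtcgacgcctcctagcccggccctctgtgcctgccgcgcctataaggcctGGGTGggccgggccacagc
S1pr4 (chr10:81500138-81500387, minus strand): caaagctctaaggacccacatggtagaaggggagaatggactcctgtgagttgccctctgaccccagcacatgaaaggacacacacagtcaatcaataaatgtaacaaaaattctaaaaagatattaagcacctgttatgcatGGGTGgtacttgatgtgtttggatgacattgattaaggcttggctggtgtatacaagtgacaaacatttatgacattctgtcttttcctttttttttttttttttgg
Klf6 (chr13:5861239-5861488, plus strand): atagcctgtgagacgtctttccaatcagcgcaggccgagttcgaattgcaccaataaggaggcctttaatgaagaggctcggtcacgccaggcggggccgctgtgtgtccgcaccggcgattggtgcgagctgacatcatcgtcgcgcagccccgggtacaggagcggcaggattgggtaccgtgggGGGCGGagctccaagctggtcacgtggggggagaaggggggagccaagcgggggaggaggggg
The Klf2 window held 1 MEF2 site, at 118 to 109 bases before the start, 1 CACCC match and 2 GGGCGG matches. Of all 32851 promoter windows of this length, 0.508% held a MEF2 site, 52% held CACCC and 32.7% held GGGCGG. The S1pr4 window held 1 CACCC match and was 38.8% G or C, against 71.2% in Klf2 and 64.8% in Klf6, and the Klf6 window held 1 GGGCGG match. TGANTCA (6.75% of windows), TGACGTCA (1.55%) and the CArG box (1.47%) were not matched in any of the 7 windows. GGGCGG matches overlapped each other in Klf4 and a CACCC match in Klf3 and Klf13, and a match is a description of letters, not of binding. On build NCBIM37, the mm9 assembly the authors mapped to, Klf2 lies at chr8:74842932-74845555, Klf6 at chr13:5860735-5869639, S1pr1 at chr3:115413351-115417973, S1pr4 at chr10:80961223-80962452 and Cd69 at chr6:129217342-129225387, all protein-coding genes whose exons were counted over the full transcript.

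The libraries were checked first against the labels and against markers of other cells. Tgfbr2, the targeted gene, stood at 172, 262, 150 and 207 CPM (counts scaled to library size with TMM factors) in WT LP ILC2s and at 206, 184 and 96.6 in Tgfbr2-/- LP ILC2s. The groups overlapped, as they did in ILC2p (0.714 to 233 in WT, 30.9 to 219 in Tgfbr2-/-), and counts over the whole gene do not check a deletion of part of it. Gata3, the lineage factor of ILC2s, ran from 2275 to 4701 CPM in LP ILC2s. In ILC2p it ran from 2330 to 4735 in WT and from 870 to 1942 in Tgfbr2-/-.

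The BM Tgfbr2-/- libraries stood apart from all others by granule genes of neutrophils and their precursors. The 10 neutrophil markers summed to 926 to 1678 CPM in the 4 WT ILC2p libraries and to 76813 to 91718 CPM in the 4 Tgfbr2-/- ILC2p libraries, none of them at 0 in any of the 8. S100a8, the most abundant in the Tgfbr2-/- libraries, stood at 59.0 to 167 CPM in WT and 23800 to 29610 CPM in Tgfbr2-/-. Of the 10 neutrophil markers 9 were called higher in Tgfbr2-/- ILC2p. The 8 macrophage and monocyte markers summed to 55.3 to 116 CPM in WT and 12278 to 13752 in Tgfbr2-/-, of which Lyz2 alone held 10887 to 12560, and 3 of the 7 tested were called higher (Cd14, Lyz2 and Ly6c2). The 8 mast cell and basophil markers summed to 111 to 298 CPM in WT and 1212 to 1908 in Tgfbr2-/-, led there by Prss34 (823 to 947), and 4 of the 5 tested were called higher, all but Cpa3. The 8 NK and ILC1 markers summed to 0.625 to 40.9 CPM in WT and 111 to 521 in Tgfbr2-/-. Of these 5 were tested and 1, Gzma, was called higher. The 14 ILC2 markers summed to 9022 to 13033 CPM in WT ILC2p and 4194 to 5942 in Tgfbr2-/- ILC2p. All 4 Tgfbr2-/- ILC2p libraries carried this signal, so no comparison of genotypes in ILC2p could be made without it, and its part in the results on ILC2p was not tested. In the 7 LP ILC2 libraries the neutrophil markers summed to 0.0481 to 4.05 CPM, with 5 to 9 of the 10 genes at 0. In bulk samples, fewer cells of a type and less RNA per cell cannot be told apart.

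**Figure D1:**
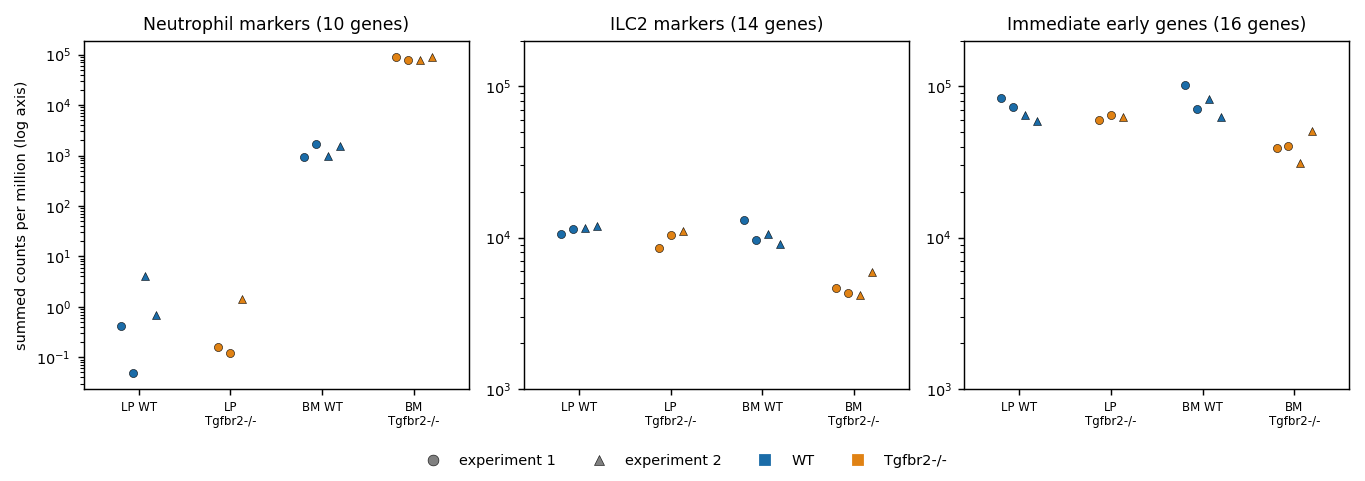
Summed CPM (log axis) of the neutrophil, ILC2 and immediate early gene lists in each of the 15 libraries, 1 point per library, circles for experiment 1 and triangles for experiment 2. The neutrophil markers lie between 76813 and 91718 CPM in the BM Tgfbr2-/- libraries and at or below 1678 CPM in all others, while the ILC2 markers and immediate early genes are lowest in those same 4 libraries.

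The ILC2p libraries also differed in how many genes they missed. Of genes at a median of 50 CPM or more in the other libraries of the cell type, at most 0.027% were under 1 CPM in any LP library. In ILC2p this share was 14.7% in WT replicate 1, 13% in Tgfbr2-/- replicate 1 and 14.5% in Tgfbr2-/- replicate 2 of experiment 1, 9.76% in Tgfbr2-/- replicate 2 of experiment 2, and 1.36 to 3.73% in the other 4.

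Klf2 was higher in the precursors than in LP ILC2s of WT mice. WT ILC2p held 606, 743, 659 and 455 CPM and WT LP ILC2s 198, 228, 135 and 140 CPM, with no overlap. The 4 Tgfbr2-/- ILC2p libraries held 423, 879, 139 and 458 CPM and the 3 Tgfbr2-/- LP ILC2 libraries 214, 256 and 141 CPM, so that 1 Tgfbr2-/- ILC2p library, of experiment 2, stood below the 3 Tgfbr2-/- LP libraries and the other 3 above them. On the log2 scale, Klf2 was -1.81 ± 0.43 (SE) in WT LP ILC2s relative to WT ILC2p and -1.22 ± 0.47 in Tgfbr2-/- cells, and the genotypes differed by 0.08 ± 0.16 in LP ILC2s and -0.51 ± 0.44 in ILC2p. Within each cell type the genotypes overlapped.

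S1pr4 followed the same order in WT cells. WT ILC2p held 577, 281, 220 and 109 CPM, and WT LP ILC2s 73.8, 106, 46.3 and 42.3 CPM. The ranges did not overlap, although the lowest ILC2p library stood only just above the highest LP library. Tgfbr2-/- ILC2p held 69.1, 151, 162 and 111 CPM and Tgfbr2-/- LP ILC2s 101, 76.8 and 81.7 CPM, which overlapped. The log2 fold change of LP ILC2s over ILC2p was -2.14 ± 0.52 in WT and -0.51 ± 0.54 in Tgfbr2-/-. Between genotypes S1pr4 gave 0.33 ± 0.29 in LP ILC2s and -1.14 ± 0.57 in ILC2p, where the part of the neutrophil signal was not tested. The ILC2p difference in mean log2 CPM was -1.98 in experiment 1 and -0.21 in experiment 2, where the genotypes overlapped. The fitted ILC2p value was -0.34 without the 3 libraries that missed the most genes. The genotype effect in LP ILC2s minus that in ILC2p was 1.47 ± 0.72 for S1pr4 and 0.58 ± 0.55 for Klf2. The median of this difference was 0.31 over all genes tested and 0.90 over the 14 ILC2 markers.

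S1pr1, the main egress receptor, was low in both cell types. LP ILC2s held 280, 171, 18 and 85 reads (13.1, 8.22, 1.01 and 5.94 CPM) in WT and 86, 103 and 26 reads (2.77, 3.17 and 1.89 CPM) in Tgfbr2-/-. Of the 8 ILC2p libraries, all 4 of experiment 1 held 0 reads, which allows up to 0.174 to 0.311 CPM (3 reads, counting error only), 1 WT library of experiment 2 held 312 reads (8.83 CPM) and the other 3 held 1, 6 and 1 reads. S1pr1 did not pass the filter on low counts in ILC2p, and no fold change between the cell types is given for it because 312 of the 313 WT ILC2p reads came from that library and the 4 Tgfbr2-/- ILC2p libraries held 7 reads in all. In Tgfbr2-/- cells each of the 3 LP libraries stood above each of the 4 ILC2p libraries, which reached at most 0.255 CPM. By RPKM, the authors' length-scaled unit, S1pr1 had the lowest mean of the 10 genes in all 4 groups, at 2.45 ± 1.62 (SD, n = 4) in WT LP ILC2s against 30.0 ± 11.7 for S1pr4.

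Cd69 ran opposite to Klf2 and S1pr4 between the cell types. WT LP ILC2s held 895, 834, 1013 and 700 CPM and WT ILC2p 463, 204, 420 and 183 CPM, with no overlap. Tgfbr2-/- LP ILC2s held 561, 593 and 587 CPM, below each of the 4 WT libraries. Tgfbr2-/- ILC2p held 85.2, 351, 81.3 and 87.1 CPM, of which only the second lay within the WT range. Cd69 was higher in LP ILC2s by a log2 fold change of 1.44 ± 0.46 in WT and 1.94 ± 0.49 in Tgfbr2-/-, and the log2 fold change of Tgfbr2-/- over WT was -0.60 ± 0.17 in LP ILC2s and -1.25 ± 0.61 in ILC2p. The ILC2p value was -1.92 without Tgfbr2-/- replicate 2 of experiment 1 and -0.84 without WT replicate 1 of experiment 2.

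Klf6 was the most abundant of the 10 genes in each group by mean RPKM. Relative to its SE, its genotype difference was the largest of the 10 in LP ILC2s and of the 9 tested in ILC2p. WT LP ILC2s held 2803, 2410, 2443 and 2370 CPM and Tgfbr2-/- LP ILC2s 1724, 1275 and 1826 CPM. WT ILC2p held 4741, 2708, 4220 and 2765 CPM and Tgfbr2-/- ILC2p 1598, 1428, 1366 and 1601 CPM. The genotypes did not overlap in either cell type, nor within either experiment of each. The log2 fold change was -0.66 ± 0.17 in LP ILC2s, where the within-experiment differences in mean log2 CPM were -0.81 and -0.40, and -1.30 ± 0.22 in ILC2p, where they were -1.25 and -1.21. In ILC2p the same comparison gave -1.41 ± 0.31 for Gata3 and a median of -1.07 over the 13 ILC2 markers tested, in the libraries that carried the neutrophil signal. The LP libraries held neutrophil markers at or near 0 and the markers of other cells given below. The part of other cells in the Klf6 difference was not tested in either cell type. The effect of genotype on Klf6 differed between the cell types by 0.63 ± 0.28 on the log2 scale, beside that same median of 0.31 for all genes.

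**Figure D2:**
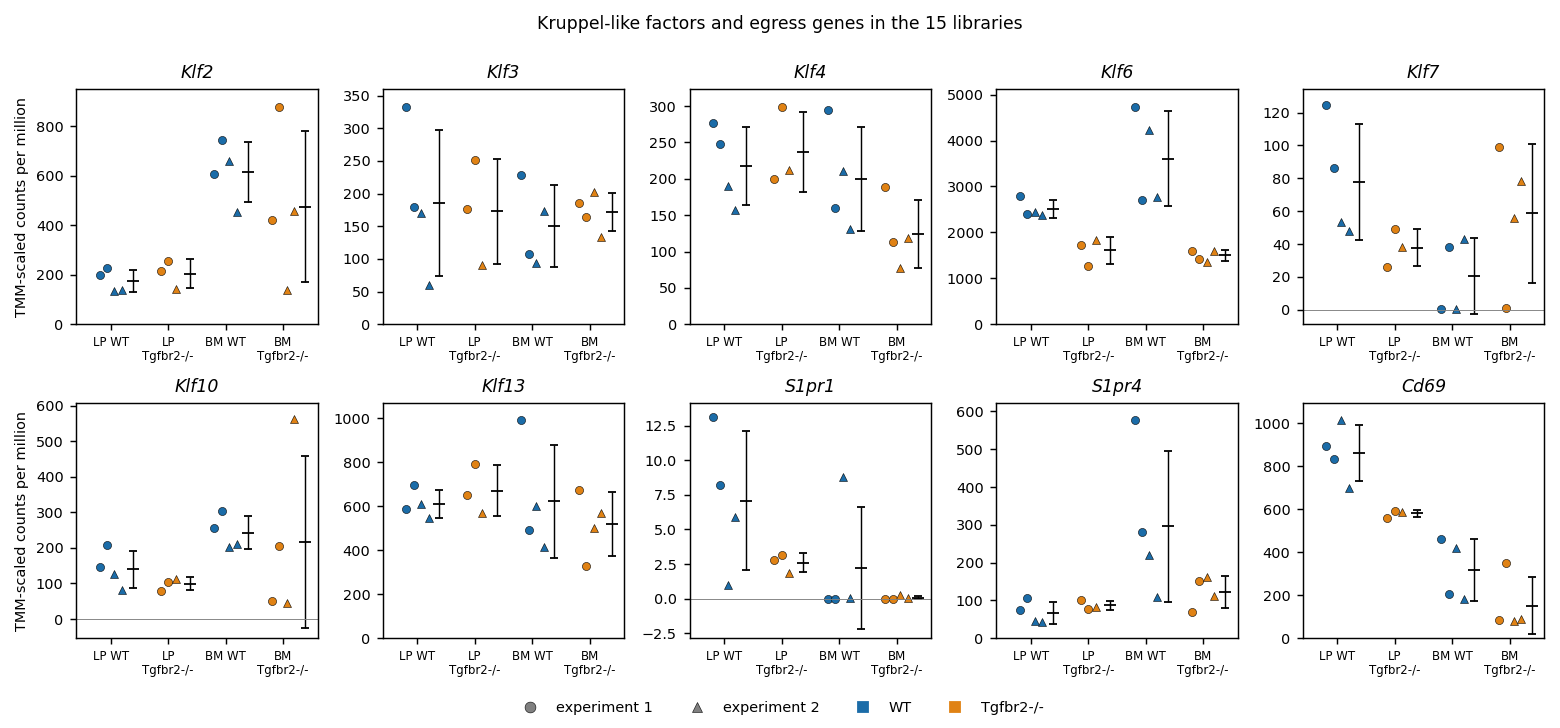
TMM-scaled CPM of the 10 genes in each of the 15 libraries (linear axes), with circles for experiment 1, triangles for experiment 2, and the mean ± SD of each group beside the points. The Klf6 points of the Tgfbr2-/- groups all lie under those of the WT groups in both cell types, Cd69 is highest in WT LP ILC2s, Klf2 is highest in ILC2p, and S1pr1 stays at or below 13.1 CPM.

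Klf7 varied widely across libraries, with a 251-fold range within ILC2p. WT LP ILC2s held 124, 86.2, 53.3 and 47.8 CPM and Tgfbr2-/- LP ILC2s 26.1, 49.1 and 38.4 CPM, a log2 fold change of -1.06 ± 0.37. The pooled ranges overlapped narrowly, while within each experiment the Tgfbr2-/- libraries lay below the WT libraries. In ILC2p, WT libraries held 0.803, 38.3, 0.396 and 43.2 CPM and Tgfbr2-/- libraries 99.3, 1.14, 55.9 and 78.1 CPM, with a log2 fold change of 1.45 ± 1.76. That value ran from 0.12 (without Tgfbr2-/- replicate 1 of experiment 1) to 2.82 with 1 library left out, so no direction is read from it.

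Klf10 was lower in Tgfbr2-/- LP ILC2s in experiment 1 (78.4 and 105 CPM against 147 and 207) and not in experiment 2 (113 against 126 and 81.2). In ILC2p it held 257, 304, 201 and 211 CPM in WT, a spread of 1.51-fold, and 51.7, 207, 46.0 and 563 CPM in Tgfbr2-/-, a spread of 12.2-fold. The genotype log2 fold changes of Klf10, -0.52 ± 0.31 in LP ILC2s and -0.31 ± 0.78 in ILC2p, had wide errors. The ILC2p value was -1.51 without Tgfbr2-/- replicate 2 of experiment 2, reached 0.13 with another library left out and was 0.46 without the 3 libraries that missed the most genes, and the LP value was -0.98 without the Tgfbr2-/- library of experiment 2.

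Klf3 and Klf13 varied less between groups than Klf4. For Klf4 the log2 fold change of LP ILC2s over ILC2p was 0.13 ± 0.37 in WT and 0.93 ± 0.40 in Tgfbr2-/- cells. Klf4 ranged from 158 to 299 CPM in LP ILC2s, from 131 to 295 in WT ILC2p (131.5 at the lowest) and from 76.9 to 189 in Tgfbr2-/- ILC2p, so that the Tgfbr2-/- LP and ILC2p libraries did not overlap. Klf3 ranged from 59.8 to 333 CPM in LP ILC2s and from 93.7 to 229 in ILC2p, with genotype log2 fold changes of -0.33 ± 0.38 and 0.16 ± 0.48. Klf13 ranged from 549 to 795 CPM in LP ILC2s and from 329 to 992 in ILC2p, with genotype log2 fold changes of 0.06 ± 0.15 and -0.27 ± 0.35. Klf4 gave 0.05 ± 0.21 and -0.74 ± 0.47, and for these 3 genes the genotypes overlapped in both cell types.

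By RPKM, which allows genes to be compared, Klf6 (646 ± 33.4, SD, n = 4) and Cd69 (579 ± 97.3) led in WT LP ILC2s, and their ranges overlapped. Klf13 (104 ± 10.2), Klf2 (104 ± 20.6), Klf3 (84.8 ± 46.1), Klf4 (76.9 ± 13.2), Klf7 (62.0 ± 23.2), Klf10 (49.3 ± 16.3) and S1pr4 (30.0 ± 11.7) followed, each overlapping the next, before the gap to S1pr1. In WT ILC2p the order was Klf6 (944 ± 182), Klf2 (381 ± 83.7) and Cd69 (214 ± 79.6), each clear of the next, then S1pr4 (133 ± 74.5), whose range overlapped that of Cd69. Klf2 therefore stood above Cd69 in WT ILC2p and far below it in WT LP ILC2s.

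Each comparison was fitted across all genes with edgeR's quasi-likelihood test, a gene being called at a Benjamini-Hochberg adjusted p under 0.1 and a fold change over 1.5. Between genotypes in LP ILC2s 0 of 11981 genes tested (0%) and 0 of the 10 were called, with 557 genes at an unadjusted p under 0.05 and 953 called by DESeq2, among them Klf6 and Cd69. Between genotypes in ILC2p 321 of 9242 genes (3.47%) and 1 of the 9 that could be tested, Klf6, were called. Klf6 was not called there by DESeq2 (log2 fold change -1.20) nor without the 3 libraries that missed over 10% of well expressed genes (-1.31), and it was called with each of the 8 libraries left out in turn. Groups did not overlap for 5.39% of the genes tested between genotypes in LP ILC2s and 10.1% in ILC2p, and for 2 of the 10 (Klf6 and Cd69) and 1 of the 9 (Klf6).

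**Figure D3:**
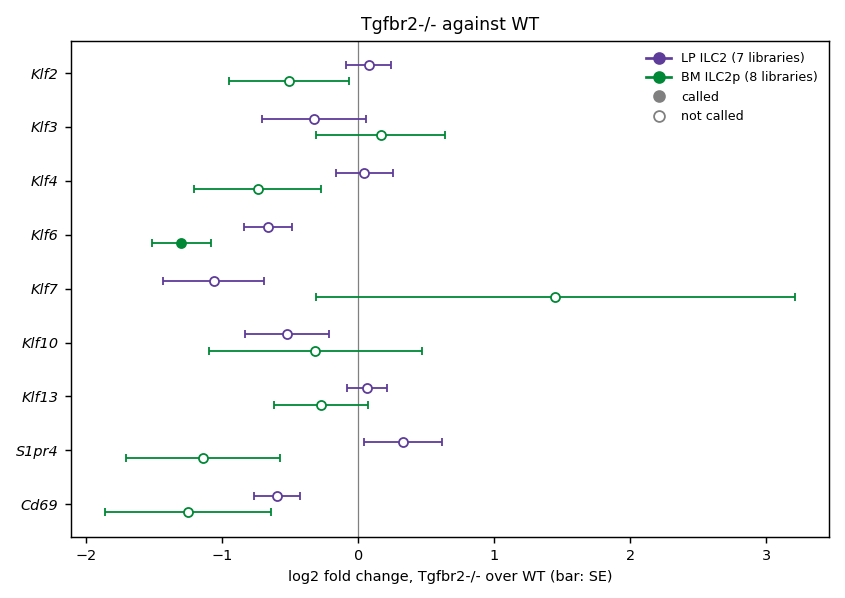
Log2 fold change of Tgfbr2-/- over WT with its SE for 9 of the genes in LP ILC2s (7 libraries) and ILC2p (8 libraries), from the edgeR fits, with filled points for genes called; S1pr1 is left out because it was not tested in ILC2p. Klf6 and Cd69 lie below 0 in both cell types, Klf6 at -0.66 and -1.30, and Klf7 in ILC2p carries the widest bar (SE 1.76).

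Between LP ILC2s and ILC2p of WT mice 302 of 12806 genes (2.36%) and 2 of the 10, Klf2 and S1pr4, were called, and 10.8% of genes did not overlap between the groups, against 4 of the 10 (Klf2, Klf7, S1pr4 and Cd69). The call for Klf2 was lost in 5 of 15 fits that left out 1 library, namely WT LP replicate 1 of experiment 1, WT LP replicate 1 or 2 of experiment 2, WT ILC2p replicate 2 of experiment 1 or WT ILC2p replicate 1 of experiment 2. That for S1pr4 was lost in 6 of 15, namely without the same 3 WT LP libraries, Tgfbr2-/- LP replicate 1 of experiment 1, or WT ILC2p replicate 1 or 2 of experiment 1. The call for Cd69 in Tgfbr2-/- cells was kept in 15 of 15 and lost when the 7 Tgfbr2-/- libraries were fitted alone (1.82), where S1pr1 was called instead, and its value rose to 2.78 without Tgfbr2-/- ILC2p replicate 2 of experiment 1. In Tgfbr2-/- mice, where the ILC2p libraries carried the neutrophil signal, 1492 of 12806 genes (11.7%) and 1 of the 10, Cd69, were called between LP ILC2s and ILC2p, and 25.3% of genes did not overlap, against 3 of the 10 (Klf4, S1pr1 and Cd69). In Tgfbr2-/- cells DESeq2 also called Klf2 and S1pr1, averaging the experiments also called Klf2, and library size scaling also called Klf4; in WT cells Cd69 was also called when the 8 WT libraries were fitted alone. The difference between the genotype effects of the cell types was called for 127 of 12806 genes (0.992%), 60 higher and 67 lower (131 and 65 with library size scaling), and for 0 of the 10. The genotype and cell type comparisons share libraries, so they are not independent of each other, and cell type is tied to tissue, sort and chimera, whose parts cannot be told apart.

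**Figure D4:**
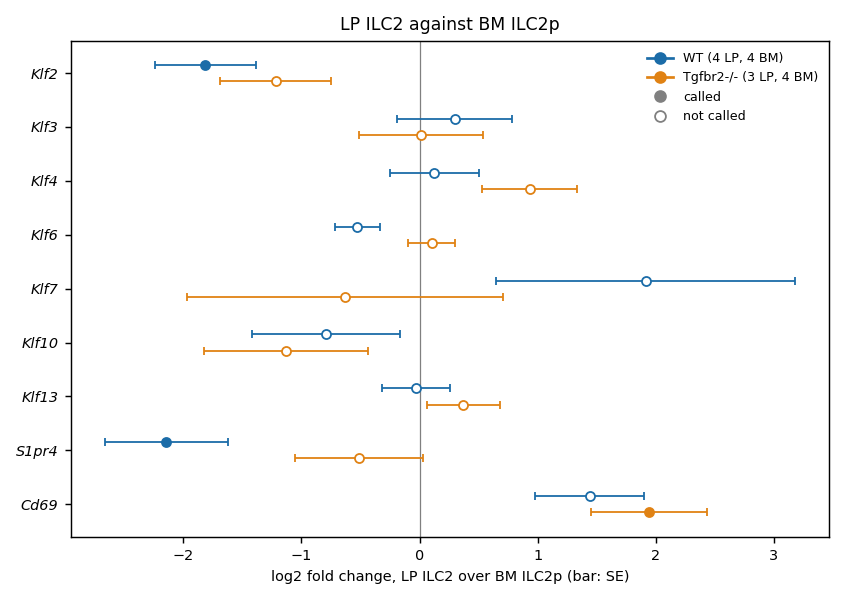
Log2 fold change of LP ILC2s over ILC2p with its SE for 9 of the genes in WT (4 and 4 libraries) and Tgfbr2-/- (3 and 4 libraries) cells, from the edgeR fits, with filled points for genes called; S1pr1 is left out because most ILC2p libraries held 0 or 1 reads of it. Klf2 and S1pr4 lie below 0 and Cd69 above 0 in both genotypes, with S1pr4 at -2.14 in WT and -0.51 in Tgfbr2-/-.

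Between the experiments of LP ILC2s, Klf2 and Klf3 were apart by their values. Klf2 stood at 198 to 256 CPM in the 4 libraries of experiment 1 and at 135 to 141 CPM in the 3 of experiment 2, a log2 difference of -0.70 ± 0.17 for experiment 2 over experiment 1 with genotype in the fit. Klf3 differed by -1.22 ± 0.39, and the estimates of Klf6 (0.02) and Cd69 (-0.02) were near 0. Of all genes, 0.977% (117 of 11981) were called between the experiments in LP ILC2s (2353 by DESeq2, among them Klf2 and Klf3, 23 with library size scaling, and 0 to 10 with any 1 of the 7 libraries left out) and 0% (0 of 9242, with 288 at an unadjusted p under 0.05 and 1562 called by DESeq2) in ILC2p, and 0 of the 10 and 0 of the 9 were called. Of the lists, Gna13 (-1.19 ± 0.17, edgeR adjusted p = 0.0724) and Fosb were called lower in experiment 2 of LP ILC2s, within that unstable count.

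Other Kruppel-like factors were led by Klf9 in all 7 LP and 6 of 8 ILC2p libraries, at 128 to 393 CPM in LP ILC2s and 22.7 to 519 in ILC2p. Of the 10 on that list 5 were tested between the cell types, and Klf1, the erythroid factor, was the 1 called, lower in LP ILC2s of both genotypes: it was at most 0.364 CPM in any LP library and reached 44.4 CPM in WT and 114 CPM in Tgfbr2-/- ILC2p. Klf5, an epithelial factor, stood at 84.4 to 218 CPM in LP ILC2s and 0.113 to 12.5 CPM in WT ILC2p without being called, and at 0.116 to 107 CPM in Tgfbr2-/- ILC2p, which reached into the LP range. Klf8, Klf12, Klf14, Klf15 and Klf17 reached no more than 5.5 CPM in any library.

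The other S1P receptors and the enzymes and transporters of S1P were low, and 0 of the 8, 4, 9 and 9 tested were called between genotypes in LP ILC2s, between genotypes in ILC2p, and between cell types in WT and Tgfbr2-/- cells. Sphk2, a kinase that makes S1P, was the most abundant in 6 of 15 libraries and ranged from 22.7 to 191 CPM in LP ILC2s and from 0.357 to 224 CPM in ILC2p. Their median log2 fold changes in those comparisons were 0.01, 0.22, 1.53 and -0.25, beside -0.01, -0.10, -0.02 and -0.04 for all genes tested.

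Genes that carry S1P receptor signals or switch the receptors off were expressed at higher levels. Rac2, a GTPase of leukocyte movement and the most abundant of the 10, stood at 976 to 1273 CPM in LP ILC2s. Gnai2, which encodes the inhibitory G protein used by S1PR1, rose in Tgfbr2-/- ILC2p (346 to 976 CPM against 91.7 to 281 in WT, log2 fold change 1.65 ± 0.33, edgeR adjusted p = 0.0356), the 1 of 9 called. This was in the libraries with the neutrophil signal, whose part was not tested. Between the cell types 3 of 10 were called in Tgfbr2-/- cells and 0 of 10 in WT: Gna13, a G protein subunit used by S1P receptors, was higher in LP ILC2s (2.57 ± 0.65, edgeR adjusted p = 0.0302), and Gnai2 (-2.02 ± 0.43, edgeR adjusted p = 0.0129) and Rac2 (-0.79 ± 0.21, edgeR adjusted p = 0.0365) were lower. The change of Gnai2 with genotype also differed between the cell types (-2.03 ± 0.44, edgeR adjusted p = 0.0695).

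Among 13 upstream regulators of Klf2, 0 were called between genotypes in either cell type (13 tested in LP ILC2s and 12 in ILC2p), and 1 between the cell types in Tgfbr2-/- cells. That gene was Smurf1, a ubiquitin ligase, at 6.55 to 23.4 CPM in Tgfbr2-/- LP ILC2s and at most 0.104 CPM in Tgfbr2-/- ILC2p. Akt1 stood at 94.1 to 261 CPM in WT ILC2p and 2.65 to 39.3 CPM in WT LP ILC2s, and did not pass the test; in Tgfbr2-/- cells the ranges overlapped (14.9 to 293 in ILC2p, 15.7 to 62.6 in LP ILC2s). The 3 MEF2 genes on the list included Mef2d, at 21.2 to 129 CPM in LP ILC2s and 4.73 to 226 CPM in ILC2p.

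Among 6 receptors of egress and homing, Itgb7, the β7 integrin used to sort ILC2p, was the 1 called lower in Tgfbr2-/- ILC2p of 5 tested. It stood at 1105 to 1767 CPM in WT and 510 to 896 in Tgfbr2-/- ILC2p (log2 fold change -1.05 ± 0.26, edgeR adjusted p = 0.0832), in the libraries with the neutrophil signal, whose part was not tested. In LP ILC2s 0 of 6 were called between genotypes. In Tgfbr2-/- cells 2 of the 6 were called higher in LP ILC2s than in ILC2p, namely Ccr7, at 12.6 to 23.5 CPM in LP ILC2s and at most 0.104 CPM in ILC2p, and Itgb7 (1.16 ± 0.23, edgeR adjusted p = 0.00826). In WT cells 0 of the 6 were called between the cell types.

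Among genes of tissue residency, Rgs2 and Rgs1 were higher in LP ILC2s than in ILC2p in both genotypes, as Cd69 was by its values. Rgs2, a brake on G protein signals and the most abundant of the list in 5 of 7 LP libraries (Bhlhe40 in the other 2), stood at 1920 to 2812 CPM in LP ILC2s and 233 to 623 CPM in ILC2p, and was called in WT (2.98 ± 0.28, edgeR adjusted p = 2.22e-05) and in Tgfbr2-/- cells (2.38 ± 0.29, edgeR adjusted p = 0.000101). Rgs1, which dampens chemoattractant receptors, was also called in both (1.19 ± 0.31 and 2.35 ± 0.33, edgeR adjusted p = 0.0777 and 0.000496). Bhlhe40 was the third called, in Tgfbr2-/- cells (2.76 ± 0.92, edgeR adjusted p = 0.0847), and 0 of the 10 were called for a difference between the genotype effects. The list gave 2 of 10 called higher in LP ILC2s in WT and 3 of 10 in Tgfbr2-/-, with 0 lower in either. Of all genes, 2.36% and 11.7% were called. The list medians were 1.12 and 1.73 beside -0.02 and -0.04 for all genes. Cxcr6 (-0.55 ± 0.25) and Prdm1 (-1.75 ± 1.68) were lower in LP ILC2s in WT without being called. In Tgfbr2-/- cells Prdm1 (-0.80 ± 1.80) and Cd44 (-0.25 ± 0.52) were lower, also without being called. In Tgfbr2-/- ILC2p, Cxcr6 (-1.82 ± 0.28, edgeR adjusted p = 0.0101) and Rgs1 (-1.75 ± 0.41, edgeR adjusted p = 0.0716) were called lower. These were 2 of 8 tested, beside 3.47% of all genes called. Those libraries carried the neutrophil signal, whose part was not tested, and the 13 ILC2 markers tested had a median of -1.07 there. In LP ILC2s 0 of 10 were called between genotypes.

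Immediate early genes, which rise within minutes of stimulation or tissue dissociation and with which Klf2, Klf4, Klf6, Klf10 and Cd69 are often induced, were abundant in all libraries. The 16 summed to 58873 to 83203 CPM in LP ILC2s, to 62895 to 102056 in WT ILC2p and to 31011 to 50460 in Tgfbr2-/- ILC2p. Between genotypes in ILC2p 6 of 15 were called, all lower in Tgfbr2-/-, and the 3 of largest change among those called were Jund (-1.97 ± 0.26, edgeR adjusted p = 0.004), Egr1 (-1.96 ± 0.34, edgeR adjusted p = 0.0203) and Dusp1 (-1.25 ± 0.26, edgeR adjusted p = 0.0413). Ier3 (85.0 to 388 CPM against 0.357 to 24.5 in WT, 6.13 ± 2.02) and Atf3 (53.3 to 198 against 0.179 to 41.9, 2.54 ± 1.33) stood higher in Tgfbr2-/- without overlap and were not called. The 6 called genes fell with Klf6 in the same 4 libraries, which carried the neutrophil signal. The part of that signal, and of the 6 genes in the level of Klf6, was not tested. In LP ILC2s 0 of 16 were called between genotypes.

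Between the cell types the immediate early genes split. In WT cells 3 were called higher in LP ILC2s and 4 lower. Nr4a1, an orphan nuclear receptor, stood at 11875 to 14651 CPM in WT LP ILC2s and 59.9 to 344 in WT ILC2p (5.96 ± 0.72, edgeR adjusted p = 0.000211), and Atf3 was higher as well (4.23 ± 0.94, edgeR adjusted p = 0.0397). Egr2, the third higher gene, was at 1.97 to 31.2 CPM in WT LP ILC2s and at most 0.0893 CPM in WT ILC2p. Jun was lower in LP ILC2s, at 4586 to 7495 CPM against 16510 to 24094 in WT ILC2p. Junb, the most abundant in LP ILC2s, ran from 13133 to 25595 CPM there. In Tgfbr2-/- cells 6 were called higher in LP ILC2s and 2 lower, and the genotype effect on Jund differed between the cell types (1.85 ± 0.39, edgeR adjusted p = 0.0552).

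Markers of other cells in the LP sorts were examined for Klf2 and S1pr1, which endothelial cells and lymphocytes also express. The 8 endothelial markers summed to 102 to 259 CPM in WT and 55.2 to 72.6 CPM in Tgfbr2-/- LP ILC2s, with 0 of 3 called between genotypes. Pecam1 alone held 101 to 208 and 53.5 to 72.6 CPM of this. Of the 8 genes, 0 to 7 were at 0 in WT libraries and 4 to 7 in Tgfbr2-/- libraries, so the sums mostly follow Pecam1. The 9 T cell markers summed to 313 to 465 CPM and 333 to 405 CPM, mostly from Lat, and the 7 B cell markers to 61.0 to 84.9 and 46.9 to 78.2 CPM. The 8 epithelial markers summed to 207 to 537 CPM and 128 to 1479 CPM, of which Klf5 held 87.7 to 218 and 84.4 to 184 CPM. Of the 7 tested, 4 were called higher in experiment 2 of LP ILC2s, and Klf5 was not among them. The 8 NK and ILC1 markers summed to 252 to 430 and 358 to 1019 CPM, and the 8 ILC3 markers to 72.8 to 580 and 202 to 429 CPM. The 6 erythroid markers, which include Klf1, summed to at most 3.17 CPM in LP ILC2s, and the macrophage and monocyte markers to 0.421 to 192 CPM. WT LP replicate 2 of experiment 2 stood apart from the other LP libraries by endothelial Kdr (26.1 CPM) and Emcn (22.3). It also held the most Csf1r (50.8) and Lyz2 (78.4) of the macrophage and monocyte markers. The part of all these markers in the levels of the 10 genes was not tested.

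Across libraries of a cell type, levels of some of the 10 genes moved together. Over the 7 LP ILC2 libraries Klf2 and Klf13 gave r = 0.84 (Spearman 0.79), Klf3 and Klf4 r = 0.82 (Spearman 0.86) and Klf6 and Cd69 r = 0.80 (Spearman 0.86). Klf2 and S1pr4 gave r = 0.71 there (Spearman 0.68), which dropped to 0.20 without the 2 libraries furthest from the median of Klf2. Over the 8 ILC2p libraries Klf7 and Cd69 gave r = -0.92 (Spearman -0.90) and Klf4 and Klf6 r = 0.80 (Spearman 0.83). These points share genotype, experiment and depth, 90 such pairs were computed, and they are descriptions only.

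The genes most like Klf2 over the 7 LP and the 8 ILC2p libraries, by the mean of the Pearson r of log2 CPM in each, were Gm8909 (0.90), Tnip1 (0.89) and Phlda1 (0.89) of 8969 genes compared. Gm8909 belongs to a family of near-identical histocompatibility genes whose reads can be split between copies, so its counts are uncertain. For S1pr1 they were Mir7052 (0.89), a microRNA entry whose reads cannot be told from those of any transcript across it, Spsb3 (0.77) and Ece1 (0.77). In ILC2p 1 library held 312 of the 320 reads of S1pr1, so these values depend on that library and name no stable likeness.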

How the data were processed

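The 10 genes, the gene lists and the comparisons were chosen with earlier results of these data known. The authors sequenced RNA of sorted cells, mapped reads to the mm9 genome using TopHat and retained multiple hits (Bowtie2 and mm9 are named in the submitters' processing notes), and counted them per gene with the program rpkmforgenes over full transcripts, versions not stated. The deposited tables give counts and RPKM for 24690 entries in each of 15 libraries. Reads kept at several places can inflate genes with close copies, and strand was not stated to be used.

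The deposited counts were fitted with edgeR 4.0.16 (R 4.3.3, TMM, filterByExpr, quasi-likelihood test, Benjamini-Hochberg adjustment over all genes tested). Genotype fits had experiment as a covariate, cell type fits used all 15 libraries in 4 groups, and a gene was called at an adjusted p under 0.1 and a fold change over 1.5. CPM were scaled by TMM factors over all 15 libraries, log2 CPM had a prior count of 2, and RPKM were used as deposited to compare genes. Log2 fold changes are given ± SE, computed as the absolute log2 fold change over the square root of the quasi-likelihood F statistic. This SE is approximate and is not reliable where a group held almost no counts. Genes were named by rule: the 10 genes, Tgfbr2, 4 sort markers, up to 3 called genes of largest change per list and comparison, each list's most abundant gene, and 3 genes most like Klf2 and S1pr1. Klf5, Klf8, Klf12, Klf14, Klf15, Klf17, Akt1, Ier3, Mef2d, Prdm1 and Cd44 were named after their values were seen. Alternatives were DESeq2 1.42.0, library size scaling, no filter, other covariates, a replicate block and each library left out, and, added after seeing the data, ILC2p without 3 libraries that missed over 10% of well expressed genes. Counting limits cover counting error only. The scripts were tested on simulated data. No 2 libraries held identical counts. The result of 1 listed gene is not reported here.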

Additional observations from a re-analysis of the deposited data

Results flagged for a closer look

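Among the 10 genes in the groups of 4 libraries, 30 groups of values were examined for a single library far from the rest, and 4 were found; chance gives about 1 in 20. Klf6 stood at 2803 CPM in WT LP ILC2 replicate 1 of experiment 1, above the other 3 libraries. S1pr1 stood at 8.83 CPM in WT ILC2p replicate 1 of experiment 2 and at 0.255 CPM (6 reads) in Tgfbr2-/- ILC2p replicate 1 of experiment 2, each with the rest of its group close to 0. Cd69 stood at 351 CPM in Tgfbr2-/- ILC2p replicate 2 of experiment 1, against 81.3 to 87.1 CPM in the other 3.

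In 28 comparisons of the direction of the genotype difference, between cell types or between the experiments of a cell type, 3 were opposite in every Tgfbr2-/- library, with the difference not tested. Klf10 in LP ILC2s was -0.94 in experiment 1 and 0.16 in experiment 2 (log2 CPM, Tgfbr2-/- minus the WT mean), a difference of -1.10 that rests on 2 libraries and 1. Klf13 differed in the same way by 0.20 in LP ILC2s (0.17 and -0.03) and by -0.67 in ILC2p (-0.56 and 0.10).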

How the results depend on the processing

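Across all alternatives, 1025 values of the log2 fold changes of the 10 genes were recomputed, of which 1011 moved by less than the spread within groups, 14 by more, and 50 had another sign than the value given, none of them a called one. S1pr1 between the cell types in WT, where 1 ILC2p library held 312 of the 313 ILC2p reads, had no stable fold change. Scaling by library size shifted the median of all genes by -0.22 between genotypes in ILC2p, 0.28 between cell types in Tgfbr2-/-, 0.29 for the difference between cell types, 0.20 between experiments in LP ILC2s and 0.14 in ILC2p. Klf3 between genotypes in ILC2p (0.16) was -0.03 under it, and Klf6 was then called for the difference between cell types (0.93).

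The counts of genes called moved more than the values, and the cause was not tested. DESeq2 called 953 and 2018 genes between genotypes in LP ILC2s and ILC2p, 1107 and 2780 between cell types in WT and Tgfbr2-/-, 1622 for their difference, and 2353 and 1562 between experiments in LP ILC2s and ILC2p. Without the filter there were 3 between genotypes in LP ILC2s, 988 between cell types in Tgfbr2-/-, 259 for the difference, and 320 and 5 between experiments; with library size scaling, 196 for the difference and 23 between LP experiments (13 higher and 10 lower, against 34 and 83). Without the 3 libraries that missed many genes, 61 were called between genotypes in ILC2p, a limit chosen after seeing the data, with a further library just under it (9.76%).

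With 1 library left out the counts ran from 0 to 0 between genotypes in LP ILC2s and between experiments in ILC2p, from 179 (without WT replicate 1 of experiment 2) to 319 between genotypes in ILC2p, from 156 (without WT ILC2p replicate 2 of experiment 1) to 370 between cell types in WT, from 596 (without Tgfbr2-/- LP replicate 2 of experiment 1) to 1904 in Tgfbr2-/-, from 14 (without Tgfbr2-/- LP replicate 1 of experiment 2) to 407 (without Tgfbr2-/- ILC2p replicate 1 of experiment 2) for the difference, and from 0 (without WT replicate 1 of experiment 2) to 10 between LP experiments.

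Same-numbered libraries of an experiment did not deviate together (r = -0.05 in LP ILC2s, -0.01 and -0.05 in ILC2p). Each value compares only 2 libraries per genotype, so it cannot exclude a pairing by number, and the main fits assumed none. A replicate block called 0 genes between genotypes in LP ILC2s and 175 in ILC2p, where it gave -1.26 for Klf6.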
